A study of Mus musculus with 6 samples.

Results

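The 10 genes described here encode the core of the mammalian circadian clock and its nearest outputs. They were taken as a list of symbols: Clock, Arntl, Per1, Per2, Per3, Cry1, Nr1d1, Nr1d2, Dbp and Bhlhe40. This list and the other gene lists below were chosen with earlier results of these data known. Their counts beside the shares of all tested genes are therefore descriptive. All 10 were found once each among the 57010 gene identifiers of the count table, and all 10 were among the 16093 genes that had enough counts to be tested. RNA came from mouse dermal fibroblasts of the ear, cultured for 3 days at 500000 cells per sample on glass, the control, or on a polyacrylamide gel with a stiffness of 1 kPa or of 20 kPa. Each substrate had 2 libraries, 6 in all. The gels differ from each other in stiffness, and glass is far stiffer than either. No allele, transgene or reprogramming factor is named for any group, and the sources used here do not give strain, sex, age, passage or the number of animals. Where libraries of a group are not from separate cultures, the p-values measure technical spread only.

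In mammalian cells the clock is a feedback loop of transcription. CLOCK and ARNTL (also called BMAL1) pair up and activate genes through E-boxes, among them the Per, Cry, Nr1d1, Nr1d2, Dbp and Bhlhe40 genes; PER and CRY proteins then repress CLOCK and ARNTL, and the REV-ERB receptors made from Nr1d1 and Nr1d2 repress Arntl against the activating ROR receptors. Fibroblasts keep this loop in culture, and a change of serum, glucocorticoid or temperature can set its phase. The labels give no hour of collection and no synchronising step, and all libraries come from day 3. A difference in the mean level of a gene and a difference in the phase of its rhythm therefore cannot be told apart, nor can fewer expressing cells and less RNA per cell.

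Nr1d1 and Bhlhe40 rose and Per3 fell on both gels against glass, under all 13 alternative settings run. Arntl also rose on both, but its call on 20 kPa was lost in 4 of those 13. The 3 Per genes had different profiles: Per1 was highest on 1 kPa, Per2 was lowest on 20 kPa, and Per3 was low on both gels. Clock and Cry1 passed no comparison. The called fold changes of the members were between 1.16 and 1.60 in size.

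Promoter sequences are shown for 4 members whose levels differed between substrates, since the loop acts through short motifs there. They are RefSeq windows of GRCm38.p6, 250 bases before to 50 bases after a transcription start, printed 5′ to 3′ on the strand of the gene. Capitals mark every match, on either strand, to the E-box CACGTG, its variant CACGTT, the D-box TTATGTAA or TTACGTAA bound by DBP, TEF, HLF and NFIL3, the ROR and REV-ERB core TAGGTCA or TGGGTCA, or the core of the cAMP response element, TGACG.
Arntl, chr7:113207261-113207560, plus strand: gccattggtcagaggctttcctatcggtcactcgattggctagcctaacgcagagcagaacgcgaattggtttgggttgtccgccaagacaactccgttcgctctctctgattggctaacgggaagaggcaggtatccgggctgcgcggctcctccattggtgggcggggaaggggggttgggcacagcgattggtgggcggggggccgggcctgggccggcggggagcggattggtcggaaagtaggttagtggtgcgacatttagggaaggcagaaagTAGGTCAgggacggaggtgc
Nr1d1, chr11:98775328-98775627, minus strand: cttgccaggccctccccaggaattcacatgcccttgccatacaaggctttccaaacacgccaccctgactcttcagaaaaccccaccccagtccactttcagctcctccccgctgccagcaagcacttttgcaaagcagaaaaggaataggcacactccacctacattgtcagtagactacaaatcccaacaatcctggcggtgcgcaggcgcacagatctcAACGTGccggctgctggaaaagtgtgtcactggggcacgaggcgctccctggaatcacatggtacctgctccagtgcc
Per1, chr11:69098699-69098998, plus strand: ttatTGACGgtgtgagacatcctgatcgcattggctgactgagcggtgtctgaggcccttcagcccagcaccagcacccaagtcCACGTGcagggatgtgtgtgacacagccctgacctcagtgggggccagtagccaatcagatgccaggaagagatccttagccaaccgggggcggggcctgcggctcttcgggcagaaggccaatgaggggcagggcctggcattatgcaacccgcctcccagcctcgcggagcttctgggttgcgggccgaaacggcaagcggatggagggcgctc
Per3, chr4:151044616-151044915, minus strand: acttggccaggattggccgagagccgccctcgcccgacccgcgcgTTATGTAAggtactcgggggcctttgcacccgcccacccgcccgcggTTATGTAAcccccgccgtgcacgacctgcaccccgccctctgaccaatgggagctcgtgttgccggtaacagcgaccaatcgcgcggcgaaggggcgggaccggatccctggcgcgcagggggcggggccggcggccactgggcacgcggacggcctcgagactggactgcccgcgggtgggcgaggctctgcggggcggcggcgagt

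With the start counted as 0, the Arntl window holds the ROR and REV-ERB core at position 30. The Nr1d1 window holds the E-box variant on its reverse strand at position -28. The Per1 window holds an E-box at -166 and the TGACG core at -246, and a second Per1 window, from a downstream start, holds that core at -132. The Per3 window holds the D-box letters at -205 and at -158. Windows were at hand for 8 of the 10 genes, 12 windows in all. Among all 32851 windows of this length, 7.15% hold the E-box, 4.68% its variant, 1.06% a D-box, 6.45% the ROR and REV-ERB core and 20.8% the TGACG core. Among the member windows, the E-box was in those of Per1 and Cry1, its variant in those of Cry1 and Nr1d1, the D-box in that of Per3, the ROR and REV-ERB core in 1 of 2 Arntl windows, and the TGACG core in both Per1 windows and that of Cry1. The windows of Clock, Nr1d2 and Dbp held none of these letters. A match is a description of the letters, not a measured binding site.

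Library totals ran from 17669006 to 21350111 counts. Levels are given as CPM, counts divided by the TMM-scaled library size, on which scale the detection floor of 3 counts lay at 0.139 to 0.174. The members had 111 to 2762 counts in each library. A gene is called changed at an edgeR quasi-likelihood p below 0.05 after Benjamini-Hochberg adjustment over all 16093 tested genes. Replicates were further apart than counting error: the chi-square over its degrees of freedom was 3.95 for 20 kPa, 12 for 1 kPa and 47.4 for glass. It sums over genes without TMM scaling, so 1 abundant gene can carry much of it. ENSMUSG00000119584.1 held 1.17% and 5.1% of the counts in glass replicates 1 and 2. It held 2.9% and 1.28% on 1 kPa, and 0.947% and 1.31% on 20 kPa. Its part in the chi-square values was not tested, so they do not give the spread of a typical gene. Of 10 fibroblast markers, 9 were higher and 1 lower on 1 kPa than on glass, and 8 higher and 1 lower on 20 kPa. Over all tested genes, 45.0% and 41.8% were called there. The summed level of the markers was 36315 to 39078 CPM on glass, 50426 to 51537 on 1 kPa and 52498 to 55276 on 20 kPa. Transcripts listed as markers of the labelled cell type were thus abundant in every library, as a sum. Some single markers moved far more than the sum. Dcn was at 157 ± 19 CPM on glass, 3542 ± 317 on 1 kPa and 2913 ± 66 on 20 kPa. In the same order, Lum was at 45.8 ± 7.5, 938 ± 62 and 884 ± 36 CPM. Vim, the marker that was lower, was at 4192 ± 144, 2191 ± 84 and 2722 ± 57 CPM.

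On 1 kPa against glass, 5 of the 10 clock genes changed, 4 higher and 1 lower, where 45.0% of all tested genes were called (23.0% higher, 22.0% lower). On 20 kPa against glass 7 changed, 5 higher and 2 lower, where 41.8% of all genes were called (22.3% higher, 19.6% lower). Between the gels 4 changed, 1 higher and 3 lower on 20 kPa, where 18.9% were called (8.94% higher, 9.92% lower). Scaling by total counts alone turned the split of all genes between the gels from 1438 higher and 1597 lower to 1945 higher and 1253 lower, and left that of the members at 1 and 3. The median log2 fold change of the members was 0.19 on 1 kPa and 0.19 on 20 kPa against glass and -0.13 on 20 kPa against 1 kPa, beside 0.00, 0.02 and 0.00 over all tested genes. Over the 3 groups together, 7 of the 10 differed, against 51.2% of all tested genes. The share of members called on 1 kPa is near the background. Since the members were chosen with earlier results of these data known, a share above the background is a description only. The libraries of 7 members did not overlap between 1 kPa and glass, where 71.0% of all tested genes did not, those of 7 members between 20 kPa and glass (67.5% of all), and those of 8 between the gels (60.1% of all). Both comparisons against glass use the same glass libraries. With DESeq2 the member counts were 5, 4 and 2, where 5764, 5253 and 2022 of all 16093 tested genes were called. Leaving out either 20 kPa library or either glass library also lowered the member count on 20 kPa against glass. Leaving out 1 kPa replicate 1 or either 20 kPa library lowered the member count between the gels. In the fits that lowered the member count between the gels, fewer of all tested genes were called there as well.

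**Figure D1:**
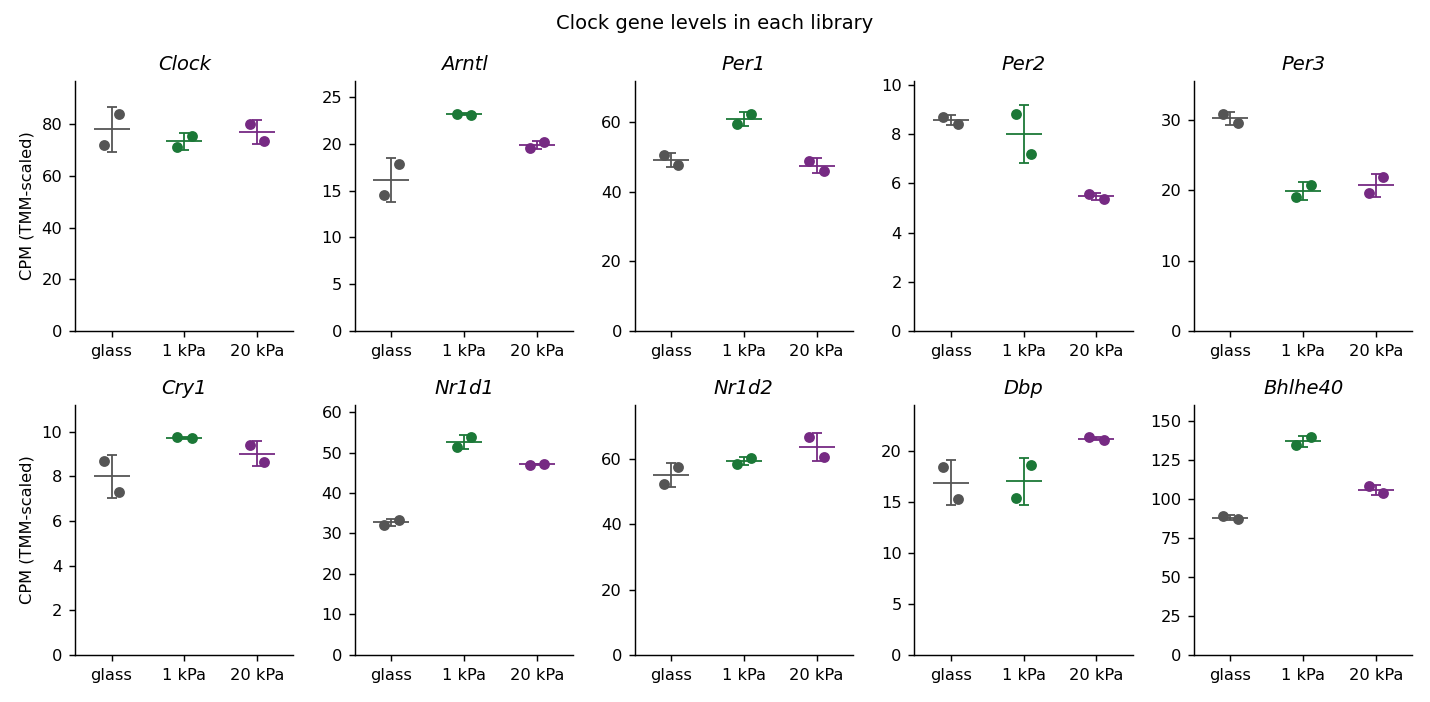
Levels of the 10 clock genes in CPM (vertical axes, from 0) on glass, 1 kPa and 20 kPa. Each point is 1 library, the wide line is the mean of the 2 libraries and the bar is their SD. Nr1d1, Arntl and Bhlhe40 lie higher on both gels than on glass, Per3 lies lower on both, and Clock overlaps throughout.

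Arntl encodes the partner without which CLOCK does not drive its targets. It lies on chromosome 7 from 113207465 to 113314126 on the plus strand (ENSMUSG00000055116.9, GRCm38). Its level was 14.5 and 17.8 CPM on glass, 23.2 and 23.1 CPM on 1 kPa, and 19.5 and 20.2 CPM on 20 kPa. The libraries of the 3 substrates did not overlap, with 1 kPa highest and glass lowest. Arntl rose 1.44-fold on 1 kPa (log2 fold change 0.53, SE 0.11, adjusted p = 0.000126) and 1.24-fold on 20 kPa (0.31, SE 0.11, adjusted p = 0.0202). The second of these calls was lost with DESeq2 (adjusted p = 0.101) and without glass replicate 1 (log2 fold change 0.16, adjusted p = 0.319), 20 kPa replicate 1 (0.0581) or 20 kPa replicate 2 (0.109). The gels differed by -0.22 for 20 kPa against 1 kPa (95% interval -0.43 to -0.01, adjusted p = 0.139), which did not pass.

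Clock, which encodes the activator that pairs with ARNTL, lies on chromosome 5 from 76209868 to 76304792 on the minus strand (ENSMUSG00000029238.12). It measured 72 and 84.1 CPM on glass, 71.1 and 75.7 CPM on 1 kPa, and 80.1 and 73.6 CPM on 20 kPa. The libraries of all 3 substrates overlapped. Its log2 fold change was -0.09 on 1 kPa (95% interval -0.24 to 0.06, adjusted p = 0.359) and -0.02 on 20 kPa (-0.17 to 0.13, adjusted p = 0.865). The call moved with 1 library: without glass replicate 1, Clock was lower on 1 kPa by a log2 fold change of -0.20 (adjusted p = 0.0268). Per kilobase of exon, the ratio of Arntl to Clock within a library was 0.377 ± 0.014 on glass, 0.576 ± 0.027 on 1 kPa and 0.473 ± 0.039 on 20 kPa (mean ± SD, n = 2). This ratio needs no library scaling, and its values did not overlap between substrates.

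Npas2 can take the place of Clock as partner of ARNTL, and it rose on both gels. It had 4.72 and 3.65 CPM on glass, 7.7 and 7.85 CPM on 1 kPa, and 7.31 and 7.17 CPM on 20 kPa. The log2 fold changes were 0.88 (SE 0.17, adjusted p = 9.38e-05) and 0.78 (SE 0.17, adjusted p = 0.000459). Arntl2, a paralogue of Arntl, lay between 13.5 and 15 CPM in all 6 libraries and passed no comparison (-0.09 on 1 kPa, adjusted p = 0.546; -0.12 on 20 kPa, adjusted p = 0.431).

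Among the repressors that act on the CLOCK and ARNTL pair, the 3 Per genes differed in profile. Per1, on chromosome 11 from 69095217 to 69109960 on the plus strand (ENSMUSG00000020893.18), is the Per gene known for its fast induction by cAMP and glucocorticoid signals. It had 50.5 and 47.6 CPM on glass, 59.4 and 62.3 CPM on 1 kPa, and 48.9 and 45.9 CPM on 20 kPa. Both 1 kPa libraries lay above all others, and glass and 20 kPa overlapped. Per1 rose 1.24-fold on 1 kPa against glass (log2 fold change 0.31, SE 0.07, adjusted p = 0.000857) and was lower on 20 kPa than on 1 kPa (-0.36, SE 0.07, adjusted p = 0.000445). Against glass, 20 kPa gave -0.05 (95% interval -0.20 to 0.10, adjusted p = 0.611).

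Per2, a scaffold of the repressor complex, lies on chromosome 1 from 91415982 to 91459324 on the minus strand (ENSMUSG00000055866.10). It had 8.69 and 8.41 CPM on glass, 8.82 and 7.17 CPM on 1 kPa, and 5.56 and 5.38 CPM on 20 kPa. Both 20 kPa libraries lay below the other 4, while glass and 1 kPa overlapped. Per2 fell on 20 kPa against glass by 0.65 on the log2 scale (SE 0.16, adjusted p = 0.00125), to 0.639 of its level. It was also lower on 20 kPa than on 1 kPa (-0.55, SE 0.16, adjusted p = 0.0124), but this call was lost with DESeq2 (0.0636) and without 1 kPa replicate 1 (log2 fold change -0.39, adjusted p = 0.242), 20 kPa replicate 1 (0.0658) or 20 kPa replicate 2 (0.0879). On 1 kPa against glass the log2 fold change was -0.09 (95% interval -0.40 to 0.21, adjusted p = 0.651).

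Per3, the Per gene least needed for rhythm, lies on chromosome 4 from 151003652 to 151044665 on the minus strand (ENSMUSG00000028957.13). It had 30.8 and 29.5 CPM on glass, 19 and 20.7 CPM on 1 kPa, and 19.5 and 21.8 CPM on 20 kPa. Both glass libraries lay above all gel libraries, and the gels overlapped. Per3 fell on 1 kPa to 0.656 of its level on glass (log2 fold change -0.61, SE 0.09, adjusted p = 3.84e-06) and on 20 kPa to 0.685 (-0.55, SE 0.09, adjusted p = 1.76e-05). Between the gels the difference was 0.06 (95% interval -0.14 to 0.26, adjusted p = 0.724). Both falls passed under all 13 alternatives run for each of them.

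The balance of the Per transcripts differed between substrates in some of their ratios. Per kilobase of exon, the ratio of Per1 to Per3 in a library came to 2.8 and 2.75 in the glass libraries, 5.35 and 5.13 in those of 1 kPa, and 4.27 and 3.58 in those of 20 kPa. The 3 substrates did not overlap in it. With 2 libraries against 2, an exact two-sided permutation test of such a ratio cannot go below p = 0.333, so no test is given.

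Cry1 encodes the strongest repressor of the pair of activators and lies on chromosome 10 from 85131700 to 85185064 on the minus strand (ENSMUSG00000020038.11). It had 8.69 and 7.31 CPM on glass, 9.75 and 9.7 CPM on 1 kPa, and 9.41 and 8.62 CPM on 20 kPa. Both 1 kPa libraries lay above the others, but no comparison passed: the log2 fold change was 0.27 on 1 kPa (95% interval -0.02 to 0.56, adjusted p = 0.122) and 0.16 on 20 kPa (-0.13 to 0.45, adjusted p = 0.387). Its paralogue Cry2 had 49 and 45.6 CPM on glass, 39.5 and 43.6 CPM on 1 kPa, and 30.6 and 32.6 CPM on 20 kPa. Cry2 fell on 20 kPa against glass (-0.58, SE 0.08, adjusted p = 7.49e-07) and was lower there than on 1 kPa (-0.39, SE 0.08, adjusted p = 0.000746), the second call not holding without 1 kPa replicate 2 (adjusted p = 0.0525). Ciart, a further repressor of the pair, was lower on 20 kPa than on 1 kPa (-0.67, SE 0.23, adjusted p = 0.0344), at 2.7 ± 0.23 against 4.31 ± 0.17 CPM, a call lost in 5 of 13 alternatives.

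**Figure D2:**
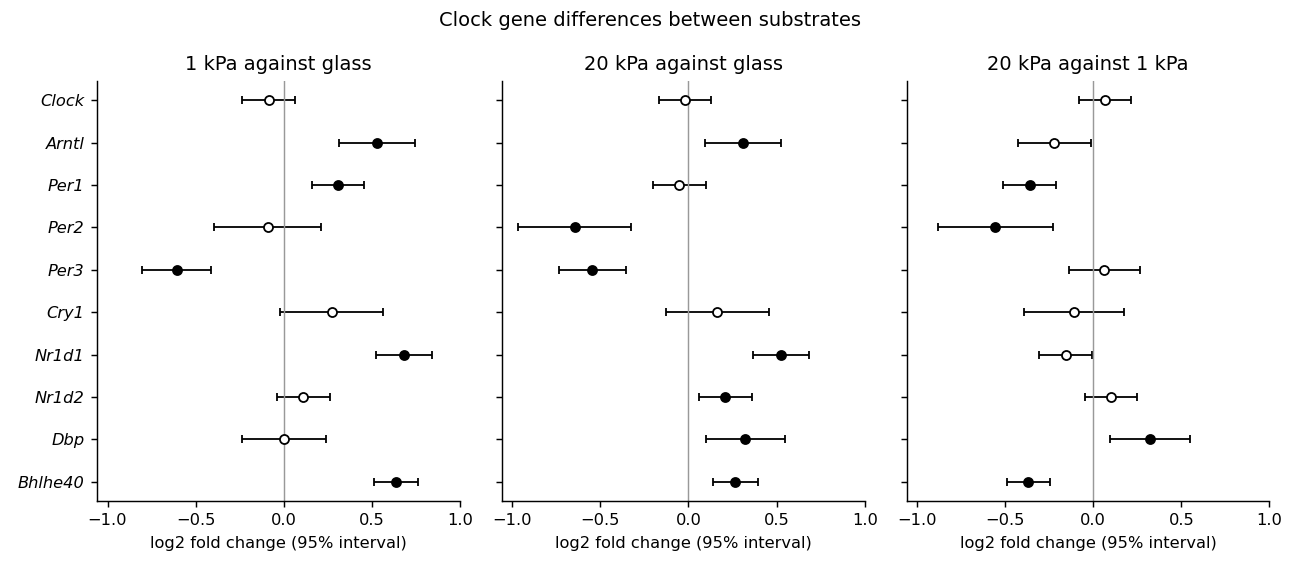
Log2 fold changes of the 10 clock genes (horizontal axes) for the 3 comparisons, as points with 95% intervals from the edgeR fit. Filled points passed the adjusted threshold and open points did not, which shows 5 filled points for 1 kPa against glass, 7 for 20 kPa against glass and 4 for 20 kPa against 1 kPa.

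Nr1d1, which encodes the repressor REV-ERB alpha, rose on both gels. On 1 kPa its rise and that of Bhlhe40 lay within their errors of each other. It lies on chromosome 11 from 98767932 to 98775333 on the minus strand (ENSMUSG00000020889.12). It had 32.1 and 33.4 CPM on glass, 51.4 and 53.7 CPM on 1 kPa, and 47 and 47.2 CPM on 20 kPa. No substrates overlapped, and the replicates of each lay close together. Nr1d1 rose 1.60-fold on 1 kPa (log2 fold change 0.68, SE 0.08, adjusted p = 1.2e-08) and 1.44-fold on 20 kPa (0.53, SE 0.08, adjusted p = 1.53e-06), and both calls held under all 13 alternatives. Between the gels the difference of -0.16 did not pass (95% interval -0.31 to -0.01, adjusted p = 0.146).

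Exons of Nr1d1 overlap the oppositely oriented gene Thra, a thyroid hormone receptor, over 263 bases, 8.55% of the exonic length of Nr1d1. Since it is not known whether counting used strand, reads from the shared stretch cannot be assigned. Thra had 63.2 and 60.4 CPM on glass, 105 and 108 CPM on 1 kPa, and 103 and 103 CPM on 20 kPa. It rose on both gels by 0.78 (SE 0.06, adjusted p = 1.23e-11) and 0.73 (SE 0.06, adjusted p = 6.06e-11) on the log2 scale. The part of the overlap in the rise of Nr1d1 was not tested.

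Nr1d2, which encodes REV-ERB beta, lies on chromosome 14 from 18204054 to 18239127 on the minus strand (ENSMUSG00000021775.12). It had 52.4 and 57.7 CPM on glass, 58.4 and 60.2 CPM on 1 kPa, and 66.6 and 60.5 CPM on 20 kPa. Glass was lowest and 20 kPa highest with no overlap, but by narrow margins. Nr1d2 rose 1.16-fold on 20 kPa (log2 fold change 0.21, SE 0.07, adjusted p = 0.0211), a call lost with DESeq2 (0.0893), without glass replicate 1 (0.175) and without 20 kPa replicate 1 (0.265), and its test over the 3 groups did not pass (adjusted p = 0.0513). On 1 kPa the log2 fold change was 0.11 (95% interval -0.04 to 0.26, adjusted p = 0.235). The ratio of Nr1d1 to Nr1d2 per kilobase of exon was 1.05 ± 0.042 on glass, 1.56 ± 0.017 on 1 kPa and 1.31 ± 0.092 on 20 kPa (mean ± SD, n = 2). The ratio was higher in every gel library than in both glass libraries.

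The ROR receptors bind the same elements as the REV-ERBs and activate from them. Rora rose on both gels, from a mean of 28.2 ± 4.9 CPM (glass) to 58.8 ± 1.3 CPM on 1 kPa (log2 fold change 1.07, SE 0.09, adjusted p = 7.04e-11) and 37.9 ± 3.8 CPM on 20 kPa (0.44, SE 0.10, adjusted p = 0.000465). It was lower on 20 kPa than on 1 kPa (-0.63, SE 0.09, adjusted p = 3.39e-06). Rorb also rose on both, from 5.04 ± 0.32 to 9.24 ± 0.3 and 9.69 ± 0.83 CPM (adjusted p = 2.76e-05 and 8.26e-06). Rora, Rorb and Nr1d1 were thus all higher on both gels than on glass.

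Dbp encodes an activator of output genes through the D-box and is itself a direct target of CLOCK and ARNTL. It lies on chromosome 7 from 45705088 to 45710203 on the plus strand (ENSMUSG00000059824.13), and 18% of its exonic length overlaps the oppositely oriented Sphk2. It had 18.4 and 15.3 CPM on glass, 15.4 and 18.7 CPM on 1 kPa, and 21.3 and 21.1 CPM on 20 kPa. Glass and 1 kPa covered nearly the same range, and both 20 kPa libraries lay above them. Dbp rose 1.25-fold on 20 kPa against glass (log2 fold change 0.32, SE 0.11, adjusted p = 0.0189) and against 1 kPa (0.32, SE 0.11, adjusted p = 0.0388). The call against glass was lost with DESeq2 (0.0944) and without glass replicate 2 (log2 fold change 0.20, adjusted p = 0.193), 20 kPa replicate 1 (0.0888) or 20 kPa replicate 2 (0.0731). The call against 1 kPa was lost with DESeq2 (0.177) and without 1 kPa replicate 1 (log2 fold change 0.19, adjusted p = 0.446), 20 kPa replicate 1 (0.167) or 20 kPa replicate 2 (0.135). On 1 kPa against glass the log2 fold change was 0.00 (95% interval -0.24 to 0.24). Sphk2, the overlapping gene, passed no comparison (0.10 on 1 kPa, adjusted p = 0.315; 0.13 on 20 kPa, adjusted p = 0.184).

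Dbp and Per2, both E-box targets, moved in opposite directions on 20 kPa against glass, though the call of Dbp was lost in 4 of 13 alternatives. The part of the overlap with Sphk2 in the counts of Dbp was not tested. Per kilobase of exon, their ratio in a library came to 4.15 and 3.56 in the glass libraries, 3.42 and 5.09 in those of 1 kPa, and 7.52 and 7.69 in those of 20 kPa. Both 20 kPa values lay above the other 4.

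**Figure D3:**
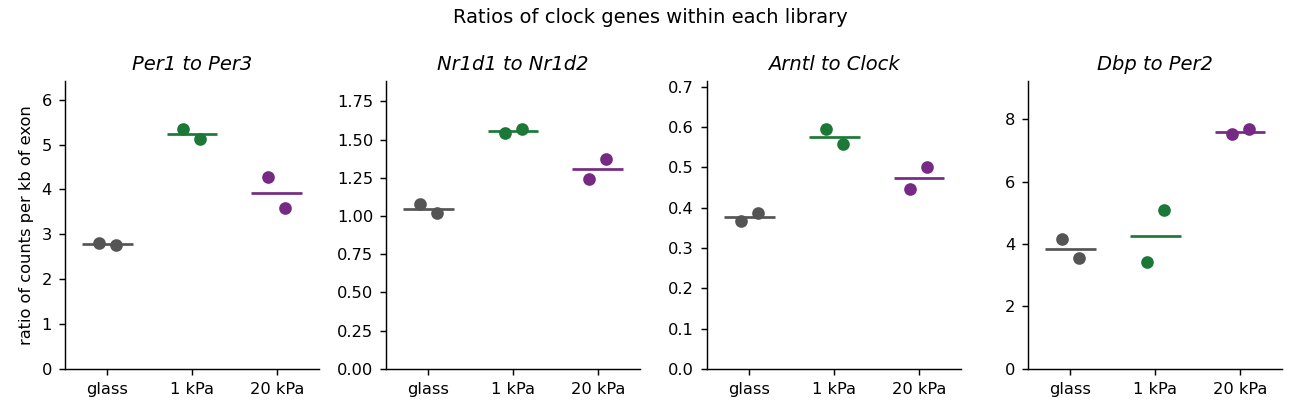
Ratios of counts per kilobase of exon between pairs of clock genes within each library (vertical axes, from 0), by substrate. Points are libraries and lines are means of 2, and Per1 to Per3, Nr1d1 to Nr1d2 and Arntl to Clock are lowest on glass and highest on 1 kPa, whereas Dbp to Per2 is highest on 20 kPa.

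Other proteins that bind the D-box had profiles of their own. Tef, an activator related to DBP, fell from 93.1 ± 0.22 CPM (glass) to 67.9 ± 1.9 CPM on 1 kPa (log2 fold change -0.46, SE 0.06, adjusted p = 6.04e-07) and 78.2 ± 1.2 CPM on 20 kPa (-0.25, SE 0.06, adjusted p = 0.00157). Between the gels Tef was higher on 20 kPa, as Dbp was (0.20, SE 0.06, adjusted p = 0.0226), a call lost in 5 of 13 alternatives. Nfil3, the repressor at the same motif, rose from 54.8 ± 1.6 to 97.5 ± 1.9 CPM on 1 kPa (0.83, SE 0.07, adjusted p = 6.14e-12) and to 74.8 ± 1.3 CPM on 20 kPa (0.45, SE 0.07, adjusted p = 1.66e-06), where Dbp rose too. Hlf, the remaining activator of this family, was at 1.65 to 1.93 CPM on average and passed no comparison. Per3, whose window holds the D-box letters at 2 positions, was low on both gels, where Tef was low and Nfil3 high. Dbp was not low on either gel, with log2 fold changes against glass of 0.00 on 1 kPa and 0.32 on 20 kPa. The relation of Per3 to these genes was not tested.

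Bhlhe40, also called DEC1, encodes a repressor that competes for E-boxes and is also a known target of hypoxia signalling. It lies on chromosome 6 from 108660629 to 108666925 on the plus strand (ENSMUSG00000030103.12). It had 89.4 and 87 CPM on glass, 135 and 140 CPM on 1 kPa, and 108 and 104 CPM on 20 kPa. The 3 substrates did not overlap, with 1 kPa highest and glass lowest. Bhlhe40 rose 1.55-fold on 1 kPa (log2 fold change 0.64, SE 0.06, adjusted p = 4.43e-10) and 1.20-fold on 20 kPa (0.27, SE 0.06, adjusted p = 0.000692). It was lower on 20 kPa than on 1 kPa (-0.37, SE 0.06, adjusted p = 2.6e-05), and all 3 calls held under all 13 alternatives. Its paralogue Bhlhe41 went the other way on 1 kPa, from 8.31 ± 0.31 to 5.68 ± 0.58 CPM (-0.54, SE 0.16, adjusted p = 0.00552), a call lost without 1 kPa replicate 2 (log2 fold change -0.45, adjusted p = 0.0725).

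Hypoxia response genes were set beside Bhlhe40. Of 8 such genes, 7 were higher and 0 lower on 1 kPa than on glass, 6 higher and 1 lower on 20 kPa, and 0 higher and 7 lower on 20 kPa than on 1 kPa. In these comparisons 45.0%, 41.8% and 18.9% of all tested genes were called. The summed level of the 8 hypoxia response genes was 521 to 529 CPM on glass, 1158 to 1184 CPM on 1 kPa and 673 to 675 CPM on 20 kPa. Vegfa, a vascular growth factor, was at 121 ± 0.55, 383 ± 7.7 and 210 ± 4.1 CPM, and Egln3, an oxygen sensor, at 3.75 ± 0.53, 31.3 ± 1.9 and 8.43 ± 0.35 CPM. The order of Bhlhe40 did not hold for 3 of the 8, named here after their values were seen. On 20 kPa against glass Slc2a1, a glucose transporter, was lower (-0.25, SE 0.06, adjusted p = 0.000726) and Pdk1, a mitochondrial kinase, did not pass (-0.05, adjusted p = 0.591). Ndrg1, a stress-induced gene, did not pass on 1 kPa (0.14, adjusted p = 0.0641) and was higher on 20 kPa (0.26, SE 0.06, adjusted p = 0.000702). Bnip3 of the same list kept the order. Its rise on 20 kPa against glass was small (0.19, SE 0.07, adjusted p = 0.0189), a call lost in 5 of 13 alternatives. The part of this signal in the rise of Bhlhe40 was not tested.

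Genes of the signals known to induce Per1 were set beside it. Against glass, 45.0% of all tested genes were called on 1 kPa and 41.8% on 20 kPa, and 18.9% were called between the gels. Of 8 cAMP and CREB response genes, 7 were higher and 0 lower on 1 kPa, 6 higher and 1 lower on 20 kPa, and 1 higher and 4 lower on 20 kPa than on 1 kPa, with summed levels of 752 to 796 CPM on glass, 1092 to 1102 CPM on 1 kPa and 843 to 847 CPM on 20 kPa. Named here are the 4 genes of this list with the smallest p over the 3 groups. Nr4a1, a fast-induced nuclear receptor, was at 101 ± 2.5, 247 ± 3.5 and 138 ± 0.86 CPM. Nr4a2 was at 27.7 ± 0.78, 165 ± 2.5 and 119 ± 1.6 CPM. Both were highest on 1 kPa as Per1 was. Unlike Per1, both were also higher on 20 kPa than on glass (adjusted p = 1.62e-07 and 4.56e-21). Pde4d and Ppargc1a were not highest on 1 kPa. Pde4d, a phosphodiesterase that breaks down cAMP, was at 38 ± 0.23, 67.1 ± 0.23 and 68.2 ± 0.72 CPM. Ppargc1a, a coactivator of mitochondrial genes, was at 1.5 ± 0.094, 4.24 ± 0.42 and 6.41 ± 0.18 CPM. Between the gels, leaving out 1 kPa replicate 2 took the count of this list from 5 to 3. Of 8 glucocorticoid receptor targets, 5 were higher and 1 lower on 1 kPa, 4 higher and 2 lower on 20 kPa, and 2 higher and 2 lower on 20 kPa than on 1 kPa, with summed levels of 739 to 774, 944 to 958 and 737 to 759 CPM. Errfi1 of that list, a feedback inhibitor of the EGF receptor, was at 381 ± 19, 495 ± 9.6 and 351 ± 7.7 CPM, while Klf9, a transcription factor, was at 52.6 ± 0.39, 80.3 ± 3.1 and 73.2 ± 4.5 CPM. Cdkn1c, a cell cycle inhibitor, was high on 20 kPa alone of the 3 substrates, at 17 ± 3, 17.7 ± 0.68 and 43.9 ± 0.47 CPM. Their part in the profile of Per1 was not tested.

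Around the members, 12 other clock transcription factors and repressors were all tested. Of these 4 were higher and 2 lower on 1 kPa than on glass, 5 higher and 2 lower on 20 kPa, and 1 higher and 4 lower on 20 kPa than on 1 kPa, with medians of 0.23, -0.07 and -0.06 on the log2 scale. All tested genes were called at 45.0%, 41.8% and 18.9% in these comparisons, so the 6 of 12 called on 1 kPa are near the background. The count between the gels fell to 3 with DESeq2 or without 1 kPa replicate 1, 20 kPa replicate 1 or 20 kPa replicate 2, and to 2 without 1 kPa replicate 2. Of 11 kinases, ubiquitin ligases and deubiquitinases that set the stability of PER and CRY, 4 were higher and 1 lower on 1 kPa, and 3 higher and 1 lower on 20 kPa, shares near that background. Between the gels 0 passed with edgeR and 0 with DESeq2, while 3 had an unadjusted edgeR p below 0.05, and other settings called 1 or 2. The count on 1 kPa fell from 5 to 1 without either 1 kPa library, to 2 without either 20 kPa library, with DESeq2 or with total counts, and to 3 without glass replicate 2 or with only the groups compared in the fit. On 20 kPa against glass it fell from 4 to 1 without 20 kPa replicate 1. Csnk1d and Csnk1e, the casein kinases that phosphorylate PER, were at 200 and 78.8 CPM on glass, and Csnk1e fell on 20 kPa by 0.28 (SE 0.07, adjusted p = 0.001). Usp2, a deubiquitinase whose transcript is itself rhythmic, rose from 7.32 ± 1.2 CPM to 12.8 ± 0.36 CPM on 1 kPa (0.80, SE 0.16, adjusted p = 0.000118).

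**Figure D4:**
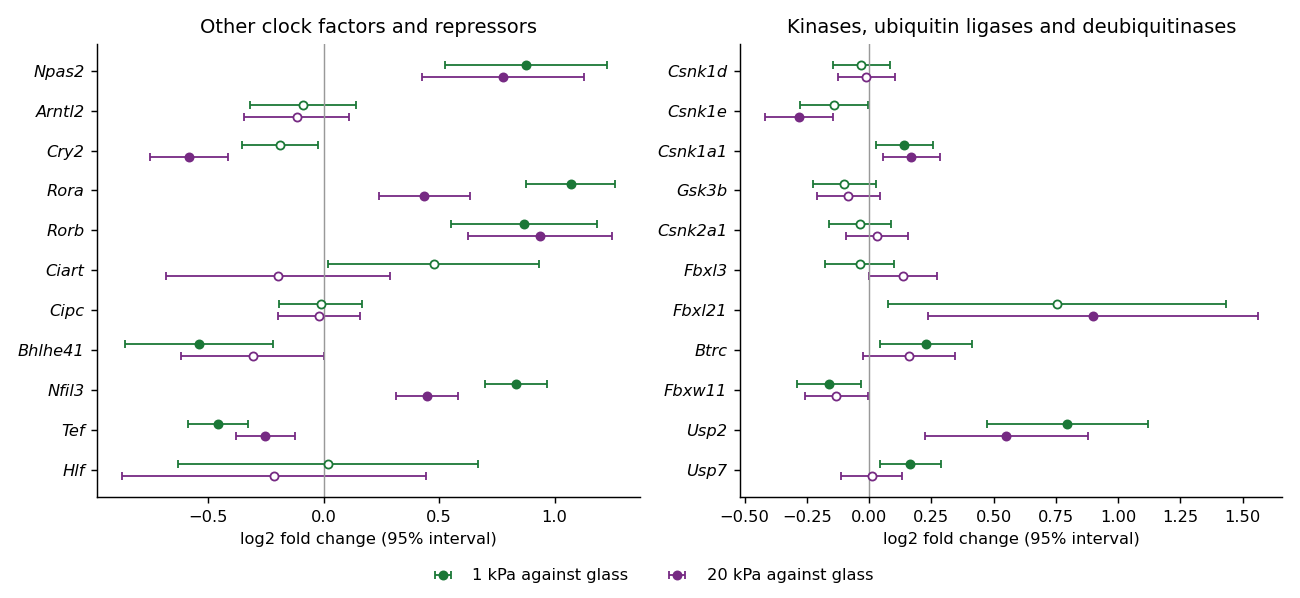
Log2 fold changes against glass (horizontal axes) of 11 of the 12 other clock factors and of 11 kinases, ubiquitin ligases and deubiquitinases, as points with 95% intervals, in green for 1 kPa and purple for 20 kPa. Filled points passed the adjusted threshold, among them Npas2, Rora, Rorb and Nfil3 above 0 and Tef below 0 on both gels.

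Levels of different members can be compared only per length. In CPM per kilobase of exon (RPKM), the order on glass ran from Bhlhe40 (18.7 ± 0.36) through Nr1d1 (10.7 ± 0.29), Nr1d2 (10.2 ± 0.68), Per1 (8.72 ± 0.37), Clock (5.69 ± 0.62), Dbp (5.64 ± 0.74), Per3 (3.14 ± 0.097), Cry1 (2.4 ± 0.29) and Arntl (2.15 ± 0.31) to Per2 (1.46 ± 0.034). In that order Nr1d1 and Nr1d2, Clock and Dbp, and Cry1 and Arntl overlapped between libraries. On 1 kPa, Nr1d1 (17.1 ± 0.55) stood clear of Nr1d2 (11 ± 0.23), and Per3 (2.07 ± 0.13) lay below Arntl (3.08 ± 0.01) and Cry1 (2.91 ± 0.011). On 20 kPa, Dbp (7.09 ± 0.055) lay above Clock (5.6 ± 0.34), and Cry1 and Arntl overlapped again. Exon lengths are unions over annotated transcripts, which lowers the values of genes with long alternative ends.

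The genes closest in profile to 4 of the members were found by the root mean square difference of centred log2 CPM over the 6 libraries, among 15796 tested genes with a symbol. Nearest to Nr1d1 were Aqp1 (0.0144), Mtf2 (0.0343) and Zfp523 (0.0351), with 193 genes within 0.1. Nearest to Arntl were Rcl1 (0.0335), Ap1s2 (0.0361) and Inafm2 (0.051), with 86 genes within 0.1. Nearest to Per2 were Dtx4 (0.0435), Rassf2 (0.0725) and Baiap2 (0.076), with 9 within 0.1, and nearest to Dbp were Gm14508 (0.0506), Zfp41 (0.0556) and Prmt6 (0.0562), with 60. With so few libraries many genes share a profile.

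Markers of other cells that an ear culture can hold were low beside the fibroblast markers. In ranges over the libraries, summed levels on glass, 1 kPa and 20 kPa were 18.1 to 22.8, 25.9 to 27.7 and 26.7 to 27 CPM for 6 keratinocyte markers, 13.2 to 13.2, 23.5 to 26 and 23.5 to 23.7 CPM for 6 endothelial markers, and 10.5 to 12.6, 12.3 to 14.8 and 11.5 to 13.1 CPM for 6 macrophage and leukocyte markers. They were 2.36 to 3.02, 18.7 to 21.1 and 8.52 to 10.4 CPM for 6 skeletal muscle markers, and 20.8 to 21.8, 32.2 to 32.6 and 27.2 to 27.3 CPM for 6 Schwann cell and melanocyte markers. The 6 chondrocyte markers were more abundant, at 475 to 502, 556 to 571 and 1022 to 1060 CPM. On 1 kPa against glass, 1 of 5 tested keratinocyte markers was higher and 3 lower, 3 of 6 endothelial, 1 of 4 leukocyte and 4 of 4 muscle markers were higher, and 3 of 5 chondrocyte and 3 of 5 Schwann cell and melanocyte markers were higher with 1 lower in each. On 20 kPa the counts were 1 higher and 3 lower, 4 higher, 1 higher and 1 lower, 3 higher, 4 higher and 1 lower, and 4 higher and 1 lower, in the same order. The share called over all tested genes was 45.0% on 1 kPa and 41.8% on 20 kPa. The keratinocyte marker higher on both gels was Trp63, at 11.1 ± 1.8 CPM on glass, 23.3 ± 1.7 on 1 kPa and 22.5 ± 0.21 on 20 kPa. Krt5, Krt14 and Dsp were the 3 lower on both, although the summed level of that list was higher there. Krt1, Itgam and Myf5 stayed at or under 3 counts in every library. The part of these cells in the clock gene differences was not tested.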

How the data were processed

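Counts of reads per gene were deposited by the authors as raw, whole numbers for 6 libraries. Per the submitters' processing notes, reads were handled with Trim Galore and cutadapt, STAR 2.7.10b, and featureCounts, on mm10; the sources used here give no settings, gene annotation or use of strand. Identifiers were matched without version to GENCODE M21 (GRCm38, the assembly of mm10), which gave symbols to 91.3% of 57010 and the positions, exon lengths and overlaps printed; 35 matched with the same version. Genes were kept with filterByExpr by group (16093) and libraries scaled with TMM. All 6 libraries entered 1 quasi-likelihood fit in edgeR 4.0.16 under R 4.3.3, whose design held the group alone, with 3 residual degrees of freedom and a common biological coefficient of variation of 4.98%. The SE was derived from the log2 fold change and its F statistic, and 95% intervals use the moderated degrees of freedom. Every adjusted p is from this test adjusted by Benjamini-Hochberg across every tested gene, unless DESeq2 (1.42.0) is named. The code was tested on simulated counts. Alternatives were other scaling, filters, tool, samples in the fit, a replicate block and leaving out each library. All 10 members and all genes of the 2 lists of other clock genes could be named (1 is not reported here), and of each other list up to 4 genes with the smallest p over the 3 groups, besides nearest profiles and overlapping genes. Members and lists were chosen with earlier results of these data known. Depth was 17669006 to 21350111 counts, and floors cover counting error only.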

Additional observations from a re-analysis of the deposited data

How the results depend on the processing

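Over 13 alternatives each, the 30 member results (10 genes, 3 comparisons) kept their side of the threshold in 370 of 390 cases. They lost a call in 19 and gained 1 (Clock on 1 kPa without glass replicate 1), with no called value reversed. Direction was not required of results that stayed uncalled. Dbp on 1 kPa against glass, for example, ran from a log2 fold change of -0.14 to 0.15. The lost calls were Arntl, Nr1d2 and Dbp on 20 kPa against glass, and Per2 and Dbp between the gels. Among 123 results of other named genes, 1521 of 1599 cases kept their side, 60 lost a call and 18 gained one. With DESeq2, 4 members and 5253 genes changed on 20 kPa against glass (7 and 6732 with edgeR). Between the gels, 2 members and 2022 genes changed with DESeq2 (4 and 3035 with edgeR). Leaving out each library in turn gave 4 to 7 members on 20 kPa against glass, 2 to 4 members and 1680 to 3824 genes between the gels, 5 to 6 members on 1 kPa against glass, and 6 to 8 over the 3 groups; where a group keeps 1 library, it is assumed to vary like the others. With total counts the share of higher genes between the gels was 1945 of 3198, against 1438 of 3035 with TMM; the members' split stayed at 1 higher and 3 lower. Replicate differences over all tested genes had correlations of -0.0347 to -0.0158 between groups. With 1 difference per group, this cannot decide whether libraries of the same number share a culture or day, which the labels do not state. The fit with a replicate block called 5, 7 and 4 members (7 over the 3 groups), with 7032, 6526 and 2862 genes. It lost 1 further call (Fbxw11 on 1 kPa, adjusted p = 0.0517) with no member's call changed. The cause of these differences was not tested. At 111 counts, the lowest of a member, counting error alone limits Per2 and Cry1 more than the others.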

Other observations

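Of 8 genes known as outputs of the clock in several tissues, 5 were higher and 2 lower on 1 kPa than on glass, 3 higher and 2 lower on 20 kPa, and 0 higher and 4 lower on 20 kPa than on 1 kPa, with medians of 0.34, 0.15 and -0.26 on the log2 scale. All tested genes were called at 45.0%, 41.8% and 18.9% in these comparisons. Por, the reductase that serves cytochrome P450 enzymes, was higher on both gels, at 119 ± 9.1 CPM (glass), 245 ± 9.7 CPM on 1 kPa (log2 fold change 1.05, SE 0.06, adjusted p = 9.05e-15) and 178 ± 5.6 CPM on 20 kPa (0.59, SE 0.06, adjusted p = 4.33e-09). Noct, the rhythmic protein nocturnin, fell from 121 ± 2 CPM to 86.3 ± 2 CPM on 1 kPa and 63.4 ± 5 CPM on 20 kPa (-0.49 and -0.93, adjusted p = 2.3e-07 and 6e-13). Wee1, a kinase that holds back mitosis and an E-box target, fell from 21 ± 0.14 CPM to 14 ± 0.94 and 13.4 ± 0.42 CPM (-0.58 and -0.65, adjusted p = 4.02e-05 and 8.31e-06). Ppard, a nuclear receptor of lipid metabolism, had the profile of Per1: it was at 85.1 ± 5.8 CPM on glass, 108 ± 7.8 CPM on 1 kPa and 81.5 ± 0.43 CPM on 20 kPa, higher on 1 kPa than on glass (0.34, SE 0.07, adjusted p = 0.000103) and lower on 20 kPa than on 1 kPa (-0.40, SE 0.07, adjusted p = 3.59e-05).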
